A study of Mus musculus with 8 samples.

Results

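The plexins are a family of cell-surface receptors, and Tiam1 is an activator of the small GTPase Rac. The genes described here are 8 plexin genes (Plxna1, Plxna2, Plxna3, Plxna4, Plxnb1, Plxnb2, Plxnc1 and Plxnd1) with Tiam1 and its relative Tiam2. They were taken by gene symbol, and all 10 were found among the 23084 genes of the authors' deposited table. Plxnd1 and Tiam1 were set against the other plexins and Tiam2 because this pair had been selected on the authors' fold changes between the genotypes in monocytic cells. Those fold changes and their p-values are not reported here, so nothing below says whether any gene differed between genotypes. What is reported is the mean signal of each gene, which is the authors' average over samples of reads scaled for depth.

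Myeloid cells of the monocytic subset, CD11b+Ly6C+, and of the granulocytic subset, CD11b+Ly6G+, had been sorted from spleens of C57BL/6 mice aged 6 to 8 weeks for RNA-seq. The 8 samples form 4 groups of 2, which are wt CD11b+Ly6C+, wt CD11b+Ly6G+, LmnaMyeKO CD11b+Ly6C+ and LmnaMyeKO CD11b+Ly6G+. LmnaMyeKO mice carry floxed Lmna alleles and LysM-Cre, a Cre inserted in the lysozyme gene Lyz2 that acts in monocytes, macrophages and granulocytes, and Lmna encodes lamin A/C of the nuclear lamina. The subset was read from the sample titles, since the cell-marker label reads CD11b+Ly6C+ for all 8 samples, and the labels do not state how many animals were behind a sample or the Cre status of the wt mice. The methods of the paper name both healthy and tumor-bearing mice as sources of cells. Its description of the RNA-seq does not say which were used.

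Each mean signal covers all 8 samples, and therefore both subsets and both genotypes. One read in one sample adds a fixed step to the mean, and the lowest means of the table showed 8 such steps. All 1368 genes with a mean below 0.42 were whole-number sums of those 8 steps (100%, within 3e-09). Steps were added 1 at a time, and the 7 in place before the last accounted for 82.0% of these genes. The steps correspond to size factors, the divisors that put samples on 1 scale, from 0.796 to 1.91, and the second largest was 1.05, so that 1 sample had 2.40 times the smallest size factor. Which sample that was cannot be read from the steps. The values analysed are not split by sample, hence no spread between replicates, no test and no order of samples can be given. Intervals of read numbers below follow from the largest and smallest step and cover the unknown split between samples only.

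Plexins bind semaphorins, secreted or membrane-bound ligands first known for guiding axons, and their cytoplasmic part acts on small GTPases of the Ras and Rap type. In immune cells, plexins take part in cell migration and in contacts between antigen-presenting cells and T cells. Tiam1 and Tiam2 are guanine nucleotide exchange factors that load Rac with GTP, which drives actin remodelling and membrane ruffling.

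The sequences just before the start sites of the genes that the description turns on are given first, so that the promoters of Plxnd1 and Tiam1 can be read beside those of the most abundant plexins. Each is the stretch of 250 bases before a RefSeq start site on GRCm38.p6 (mm10), written from 5′ to 3′ on the strand of the gene. Capitals mark GGGCGG, the GC box bound by SP1, in either orientation. The Plxnd1 window is chr6:115995006-115995255, the Tiam1 windows are chr16:89974700-89974949 and chr16:89818353-89818602, that of Plxnb2 is chr15:89180789-89181038 and that of Plxnc1 is chr10:94944846-94945095, and all are on the minus strand and contain no annotated exon. Both Tiam1 windows lie within introns of the annotated gene, which extends further upstream.
Plxnd1: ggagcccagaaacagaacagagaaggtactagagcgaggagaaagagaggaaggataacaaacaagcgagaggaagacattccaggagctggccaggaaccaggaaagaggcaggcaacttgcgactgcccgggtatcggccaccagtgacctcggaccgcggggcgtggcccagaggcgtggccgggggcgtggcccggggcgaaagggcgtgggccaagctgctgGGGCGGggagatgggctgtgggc
Tiam1, upstream start: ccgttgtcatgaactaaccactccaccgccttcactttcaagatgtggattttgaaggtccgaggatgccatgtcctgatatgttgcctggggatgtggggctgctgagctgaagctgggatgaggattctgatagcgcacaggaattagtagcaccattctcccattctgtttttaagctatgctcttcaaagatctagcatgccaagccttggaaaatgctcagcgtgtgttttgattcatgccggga
Tiam1, downstream start: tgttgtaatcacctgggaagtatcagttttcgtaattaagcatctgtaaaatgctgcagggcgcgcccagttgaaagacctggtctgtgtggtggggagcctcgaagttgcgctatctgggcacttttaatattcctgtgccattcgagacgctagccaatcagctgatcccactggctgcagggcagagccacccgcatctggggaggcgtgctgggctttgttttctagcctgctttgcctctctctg
Plxnb2, upstream start: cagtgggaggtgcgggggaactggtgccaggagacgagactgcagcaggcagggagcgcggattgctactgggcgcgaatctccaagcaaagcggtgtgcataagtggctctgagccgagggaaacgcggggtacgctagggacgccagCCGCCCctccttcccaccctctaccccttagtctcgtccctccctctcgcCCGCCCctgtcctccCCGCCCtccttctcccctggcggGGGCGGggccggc
Plxnc1: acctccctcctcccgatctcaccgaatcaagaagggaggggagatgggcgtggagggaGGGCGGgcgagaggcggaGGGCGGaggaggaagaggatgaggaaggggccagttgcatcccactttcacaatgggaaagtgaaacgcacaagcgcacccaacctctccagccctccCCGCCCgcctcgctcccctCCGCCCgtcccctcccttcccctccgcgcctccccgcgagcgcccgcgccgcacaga
The Plxnd1 window holds 1 GC box and 16 CpG dinucleotides, while the printed windows of Plxnb2 and Plxnc1 hold 4 GC boxes each and 20 and 22 CpG. A second Plxnb2 window, chr15:89173952-89174201, holds 3 GC boxes and 13 CpG. Both Tiam1 windows lack the GC box and hold 6 and 9 CpG, against a median of 6 over 32841 windows of the same length. RefSeq windows were found for 8 of the 10 genes (all but Plxna1 and Plxna4), 12 windows in all, and 7 of the 12 contain a GC box, against 32.7% of all windows. These 7 belong to plexins, and none of the 5 windows of Tiam1 and Tiam2 contains one. All 5 lie inside the annotated gene, and the Tiam2 window chr17:3482065-3482314 holds 107 exon bases. No window at the outermost annotated start of Tiam1 or Tiam2 was searched. The printed plexin windows lie just outside the annotated gene. Among the plexin windows not printed, that of Plxna2 and the second of Plxnb2 lie inside the gene. That of Plxnb1 crosses the annotated start of its gene. The Plxna2 and Plxnb1 windows hold 250 exon bases each, and all of these inner or crossing plexin windows contain a GC box. Plexin and Tiam windows are therefore not like for like. The PU.1 motif GAGGAAGT was in 0 of the 12 windows (2.44% of all), the TATA box TATAAA in 0 (12.4%), and the C/EBP motif TTGCNNAA in 1, that of Plxna3 (9.57%). Both strands were searched, and a match is a description of these letters only.

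Among the plexins, Plxnb2 and Plxnc1 had by far the most signal. Plxnb2 encodes plexin-B2, a receptor for class 4 semaphorins, and spans 89155549 to 89180788 of chromosome 15 (minus strand, mm10). Its mean signal was 4634 scaled reads. Plxnc1 encodes plexin-C1, the receptor of semaphorin 7A and of viral semaphorins, and spans 94790866 to 94944835 of chromosome 10 (minus strand). Its mean signal was 4462 scaled reads. To compare genes, each mean was divided by the length of the longest annotated transcript, which gave 713 per kb for Plxnb2 and 611 per kb for Plxnc1. The pair held 80.6% of the summed level per kb of the 8 plexins. Between them the order depended on the length used, since Plxnb2 was 1.17 times Plxnc1 with the longest transcript and 0.887 times Plxnc1 with the coding length.

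Plxna1 and Plxnd1 formed a middle level. Plxna1 (chromosome 6, 89316314 to 89362620, minus strand) encodes plexin-A1, a receptor for semaphorin 6D and, through neuropilins, for class 3 semaphorins. Its mean signal was 1659, or 184 per kb, which is 11.2% of the summed plexin level. Plxnd1 (chromosome 6, 115954811 to 115995005, minus strand) encodes plexin-D1, a receptor of semaphorins 3E and 4A, best known from blood vessels and thymocytes. Its mean signal was 858, or 124 per kb, which is 7.57% of the summed plexin level. Plxnd1 was thus the fourth plexin in order, below Plxna1 by 1.48 times, below Plxnc1 by 4.92 times and below Plxnb2 by 5.74 times per kb. With the median transcript as length, Plxnb2 was 3.53 times Plxnd1. The place of Plxnd1 held with each of the 4 lengths tried.

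The remaining plexins were low. Plxna3 (chromosome X, 74329066 to 74344689, plus strand) had a mean signal of 51.7, or 7.44 per kb, and Plxnd1 was 16.7 times higher per kb. Plxnb1 (chromosome 9, 109095389 to 109119917, plus strand), which encodes the first described semaphorin 4D receptor, had a mean signal of 14.0, or 1.62 per kb. Plxna2 (chromosome 1, 194618218 to 194816869, plus strand) and Plxna4 (chromosome 6, 32144268 to 32588192, minus strand), receptors of class 3 and class 6 semaphorins in the nervous system, had means of 5.52 and 5.12. Per kb these were 0.50 for Plxna2 and 0.40 for Plxna4. Together, these 4 genes held 0.606% of the summed plexin level. Few reads stood behind them, between 89 and 215 over the 8 samples for Plxnb1, 35 to 85 for Plxna2 and 32 to 79 for Plxna4, so that their presence in every sample cannot be stated. Plxna2 and Plxna4 cannot be ordered, since Plxna4 was the higher with the union of exons as length. The third class B plexin, Plxnb3, was not in the list of 10, and its mean was 73.3, or 11.8 per kb.

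**Figure D1:**
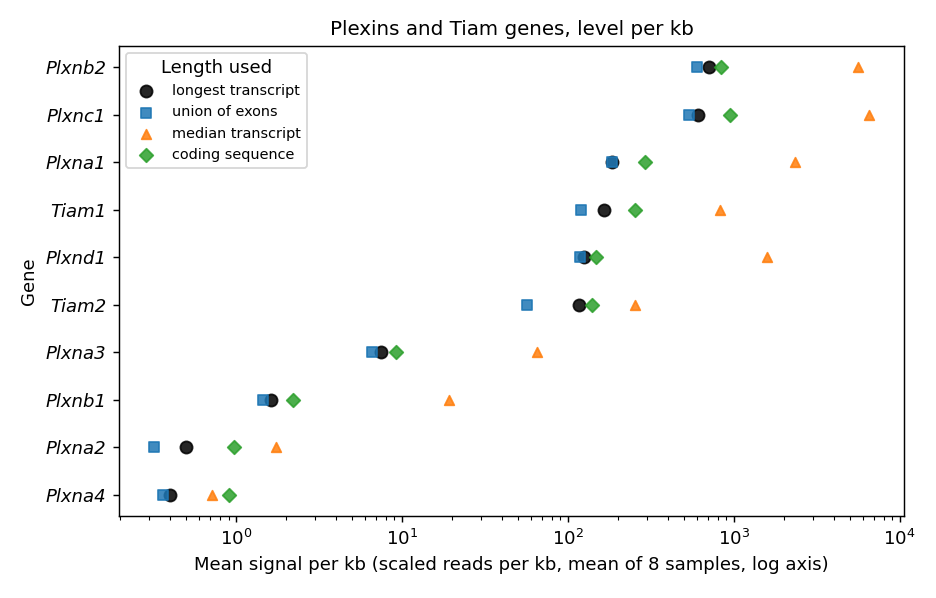
Mean signal per kb of the 8 plexins, Tiam1 and Tiam2 on a log axis, one line per gene, with the mean over 8 samples divided by 4 different lengths (symbols). Plxnb2 and Plxnc1 lead with every length, Plxna1, Tiam1, Plxnd1 and Tiam2 lie between 117 and 184 per kb with the longest transcript, and Plxna3, Plxnb1, Plxna2 and Plxna4 lie at 7.44 per kb or lower.

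With the longest transcript as length, Tiam1 and Tiam2 were both near the level of Plxnd1. Tiam1, named for T-lymphoma invasion and metastasis, spans 89787111 to 90143769 of chromosome 16 (minus strand). Its mean signal was 1210, or 166 per kb. Tiam2 (chromosome 17, 3326573 to 3531344, plus strand) had a mean signal of 719.5, or 117 per kb. Tiam1 was above Tiam2 with all 4 lengths, by 1.41 times with the longest transcript, 1.81 with the coding length, 2.13 with the union of exons and 3.25 with the median transcript. Plxnd1 stood at 0.748 times Tiam1 with the longest transcript, 0.976 with the union of exons and 0.586 with the coding length. Only with the median transcript was Plxnd1 the higher, at 1.92 times, so their order depends on the length used. With the coding length Plxnd1 and Tiam1 were at 149 and 254 per kb, and with the median transcript at 1583 and 826. The median annotated transcript of each is thus shorter than its coding sequence. Tiam2 was below Plxnd1 with all 4 lengths. The values were 117 against 124 per kb with the longest transcript, and 255 against 1583 per kb with the median transcript. Tiam1 has 15 annotated transcripts and Tiam2 has 9, and the deposited signal does not separate them.

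Set against the whole table, 6 of the 10 genes (Plxnb2, Plxnc1, Plxna1, Tiam1, Plxnd1 and Tiam2) were above the median level of the 15697 protein-coding genes, 82.7 per kb, and 4 were below it. Plxnb2 was above 87.2% of them and Plxnc1 above 85.3%. Tiam1 was above 62.2%, Plxnd1 above 57.0% and Tiam2 above 55.9%, near the middle of the distribution. Plxna4, at the other end, was above 8.18%.

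**Figure D2:**
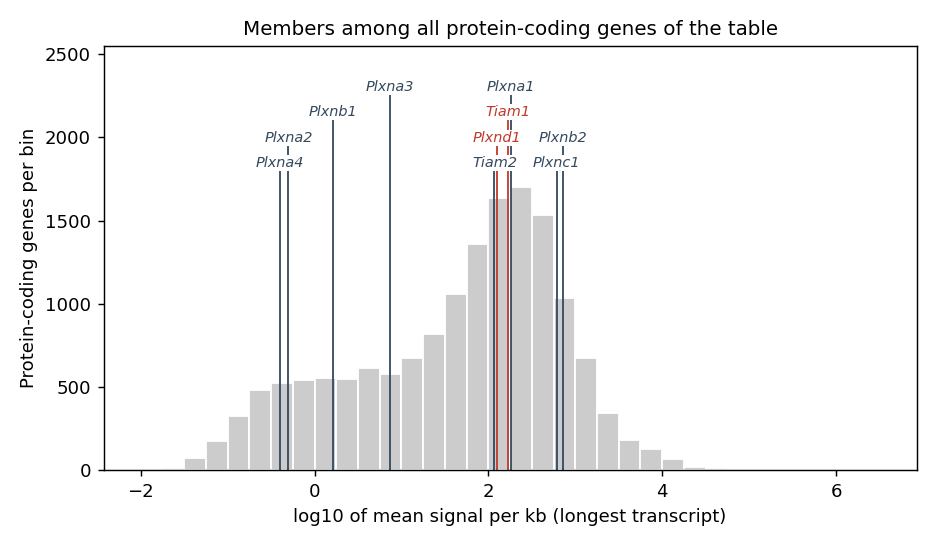
Histogram of the log10 mean signal per kb of protein-coding genes, with the 10 genes as vertical lines (Plxnd1 and Tiam1 in red). Plxnd1, Tiam1, Tiam2 and Plxna1 lie near the peak of the histogram, Plxnb2 and Plxnc1 to its right, and Plxna3, Plxnb1, Plxna2 and Plxna4 in its left shoulder.

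Ligands of the most abundant plexins were also present. Of 20 semaphorin genes, 18 had a row in the table and 7 were above the median of protein-coding genes. All 7 were also above Plxnd1 and Tiam1. The highest were Sema4a, with 3431 per kb, Sema4d, with 1981 per kb, and Sema4b, with 343 per kb, all membrane-bound class 4 semaphorins. Semaphorin 4D is a ligand of plexin-B2, and semaphorin 4A binds plexin-D1 among other receptors. Sema7a, the ligand of plexin-C1, was at 321 per kb, and Sema6d, a ligand of plexin-A1, was at 234 per kb. The secreted class 3 semaphorins were low, from 0.04 per kb for Sema3c to 7.40 per kb for Sema3g. Sema3e, which encodes another ligand of plexin-D1, and Sema5b had no row in the table analysed, which lists genes only from a lowest mean of 0.185. At the level of co-receptors, Tyrobp (DAP12), which plexin-A1 uses together with Trem2, was at 52364 per kb, and Nrp1 (neuropilin-1) was at 198 per kb. Erbb2 was at 30.8 per kb and Trem2 at 22.8 per kb, so that 2 of 8 co-receptor genes were above the median of protein-coding genes.

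Inside the cell, levels of the plexins' partners and of Rac regulators spanned a wide range. Of 16 cytoplasmic partners of plexins, 9 were above the median of protein-coding genes, led by Rap1b, a target of the plexin GTPase-activating domain (5065 per kb), the tyrosine kinase Fes (3129 per kb) and the actin-oxidising enzyme Mical1 (1717 per kb). Among 11 other Rac activators, 6 were above both Plxnd1 and Tiam1, of which Prex1 (2204 per kb), Dock2 (2011 per kb) and Vav1 (1900 per kb), all known from leukocytes, had the most signal. Among 4 partners of Tiam proteins, the scaffold Ppp1r9b (spinophilin) was at 1306 per kb, Hras at 104 per kb and Pard3, a polarity protein, at 1.49 per kb.

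**Figure D3:**
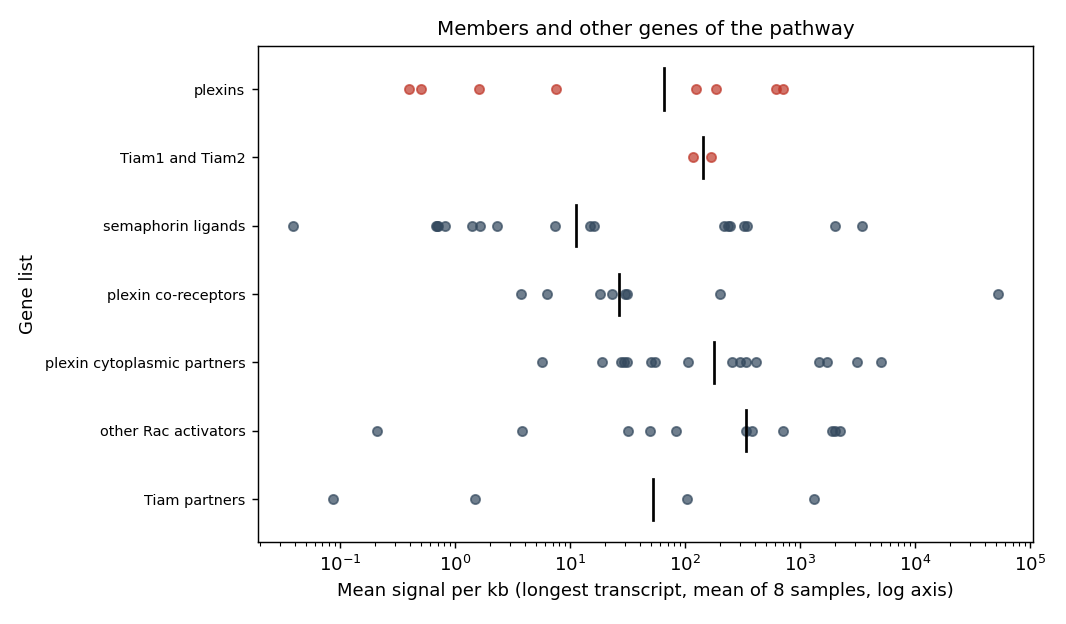
Mean signal per kb (log axis) of the plexins and Tiam genes (red) and of 5 lists of other genes of the pathway (dark points), one point per gene, with the median of each list as a black line. The medians run from 11.1 per kb for semaphorins to 334 per kb for other Rac activators, and each list spans a wide range.

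Marker genes were read in the same means over both subsets, which cannot check either sort or say which subset held a transcript. Monocyte markers ran from 157 per kb (Cx3cr1) to 11546 per kb (Itgam, which encodes CD11b), and neutrophil markers from 1482 per kb (Mpo) to 1397989 per kb (S100a9), with Ly6g at 8346 per kb. B-cell markers ran from 1414 to 37764 per kb (5 of 5 above Tiam1), tissue macrophage markers from 2084 to 9704 per kb (6 of 6), and T- and NK-cell markers from 27.0 to 302 per kb (1 of 4). Hbb-bs and Hba-a1, hemoglobin genes, were at 13663 and 6669 per kb. Dendritic-cell markers ran from 3.77 to 50.4 per kb and endothelial markers from 0.71 to 7.57 per kb, with none of either list above Plxnd1. Transcripts of B cells, macrophages and red cells were thus present in the samples, and their part in the levels of plexins and Tiam genes was not tested. In such bulk samples, fewer cells of a type and less RNA per cell cannot be told apart. Lmna itself had a mean of 79.5, or 20.1 per kb, which as an average over both genotypes does not check the deletion.

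Sequence shared between genes can send reads to the wrong one. Words of 50 bases from the longest transcript of each gene were searched in the transcripts of GENCODE M21, in the sense orientation only. In that search 0 were shared with another of the 10, and 9 genes shared none with any gene. Plxnc1 shared 68 words (0.938%) with Gm48718, an unverified transcript on the same strand. On the opposite strand, Gm26811 covers 10.7% of the exon bases of Plxna1, and opposite-strand neighbours cover 2.68% of those of Plxnb1, 1.11% of Tiam2 and 0.780% of Plxna4. Whether the libraries kept strand is not given in the sources used here, so reads in those stretches may belong to either gene.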

How the data were processed

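Total RNA from sorted splenic myeloid cells was sequenced by the authors. Per the labels and methods, adapters were removed (Cutadapt 1.14), alignment to mm10 was in two-pass mode (STAR 2.5.2b), gene counts were estimated with RSEM 1.3.0 on GENCODE M12, and DESeq2 1.20.0 scaled and compared them. The deposited table gives each gene a mean signal, the authors' average of counts divided by size factors. Its other columns hold the authors' comparison (log2 fold change, standard error, score, p-value, adjusted p-value and signed fold change) and were not used. No count test could be run, since there are no values per sample, and the methods give reads per sample only as a range.

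The steps of 1 read were recovered from means below 0.42 with sums of up to 6 reads, and the procedure was tested on simulated data. Gene positions and lengths came from GENCODE M21 on the same build (23004 of 23084 identifiers matched). For symbols with more than 1 row, the row with the highest mean was used. Levels between genes were compared per kb of the longest transcript, with 3 other lengths as alternatives. Proteins were not compared. Promoters came from RefSeq (GRCm38.p6). Python 3.11.15, pandas 2.3.3 and numpy 2.4.6 were used.

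The genes and lists were chosen with earlier results of these data known. Named are the 10 genes, Lmna, and the 3 highest per kb of each pathway list with those lacking a row. 1 pathway list is not reported here. Sema7a, Sema6d, Sema3c, Sema3g, Trem2, Plxnb3, the overlapping genes and single markers were named after their values were seen.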

Additional observations from a re-analysis of the deposited data

How the results depend on the processing

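The level per kb depends on the length chosen. The median over the 10 genes was 121 per kb with the longest transcript and 87.0 with the union of exons. It was 540 with the median transcript and 144 with the coding length. The same reads are divided in each case, so counting error has no part in these differences. With the union of exons, 3 of the 10 genes stayed within an interval set by their read numbers. That interval is wider for genes with fewer reads, so it does not measure the effect of length. The median percentile of the 10 genes was 68.6 among all genes, 56.5 among protein-coding genes and 49.4 among genes with a mean of at least 10. With all 4 lengths, Plxnd1 lay between Plxna1 and Plxna3, and Tiam1 lay above Tiam2. No paired analysis was possible because only means over samples were analysed. Hence leaving out each replicate and other count normalizations were not run, and neither was the comparison of protein sequences.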
